A study of Homo sapiens with 36 samples.

Results

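The T cell receptor is a surface complex of clonotypic chains and CD3 signalling chains, and this account follows its 10 genes through GATA3 knockdown in 7 human T cell neoplasm lines. The genes were taken by symbol from a table of 60628 genes: the constant genes TRAC, TRBC1, TRBC2, TRDC, TRGC1 and TRGC2, and CD3D, CD3E, CD3G and CD247. Polyadenylated RNA was sequenced in 36 libraries: 18 carried a hairpin RNA that targets GATA3 (knockdown), and 18 carried a scrambled hairpin with GATA3 labelled WT (control). 4 lines carry the label Acute Lymphoblastic Leukemia (T-ALL): MOLT4 with 2 knockdown and 2 control libraries, THP6 with 2 and 3, SUP-T1 with 3 and 3, and CCRF-CEM with 3 and 3. The other 3 carry the label cutaneous T lymphocyte and are grouped as CTCL, for cutaneous lymphoma: Mac1 with 2 knockdown and 2 control libraries, H9 with 3 and 2, and MyLa (MylaCD4+ in the labels) with 3 and 3. All are established lines grown in the same medium with serum, so each group describes 1 line and not a patient sample or a normal T cell. The labels do not say whether a hairpin line was 1 clone or a pool.

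An alpha chain pairs with a beta chain, or a gamma chain with a delta chain, and each has a variable end assembled by V(D)J recombination and a constant end encoded by a constant gene. A rearranged beta or gamma locus is read into either of a pair of near-identical constant genes, TRBC1 or TRBC2, and TRGC1 or TRGC2. CD3 delta, epsilon and gamma, encoded by CD3D, CD3E and CD3G, and the zeta chain, encoded by CD247, carry the signal inward through motifs that the kinase LCK phosphorylates. In immature T cells the beta chain first pairs with the pre-receptor alpha chain, PTCRA, before the alpha locus is rearranged. GATA3, the zinc finger factor targeted here, is required for commitment to the T lineage and for development up to and beyond the stage at which the beta chain is selected.

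GATA3 itself went against the labels in SUP-T1. It was 81.3, 77.2 and 86.6 CPM (counts per 1 M counts of a library total scaled by the TMM method) in the SUP-T1 libraries labelled knockdown, against 24.4, 23.6 and 24.2 CPM in those labelled control. SUP-T1 libraries are therefore called by their labels throughout, and counts are also given without them. In the other lines GATA3 fell, with log2 fold changes from -1.45 in MOLT4 to -0.72 in MyLa. Library totals ran from 18.62 M to 50.63 M counts. Over genes with at least 20 counts in a pair of libraries, the mean squared difference between the THP6 knockdown libraries was 154 times that of Poisson counting, and CCRF-CEM control 2 differed from controls 1 and 3 by 85.8 and 102.6 times, against 6.37 between those 2. H9 knockdown 2 differed from knockdowns 1 and 3 by 25.5 and 34.0 times, against 5.27 between those 2. In SUP-T1, the library labelled knockdown 3 differed from knockdowns 1 and 2 by 24.4 and 32.6 times, against 4.56 between those 2. Changes of the receptor genes that rest on 1 of these libraries are given without it. The labels name no separate cultures behind the replicates. The p-values therefore reflect only how these libraries scatter, and that scatter may be technical. Defining T cell markers were absent in places: CD3D, CD3E and CD3G had 0 counts in every Mac1 library, and CD4 in MyLa had 0 counts in the 3 knockdown libraries and averaged 0.0363 ± 0.0361 CPM in the 3 control libraries (SD).

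**Figure D1:**
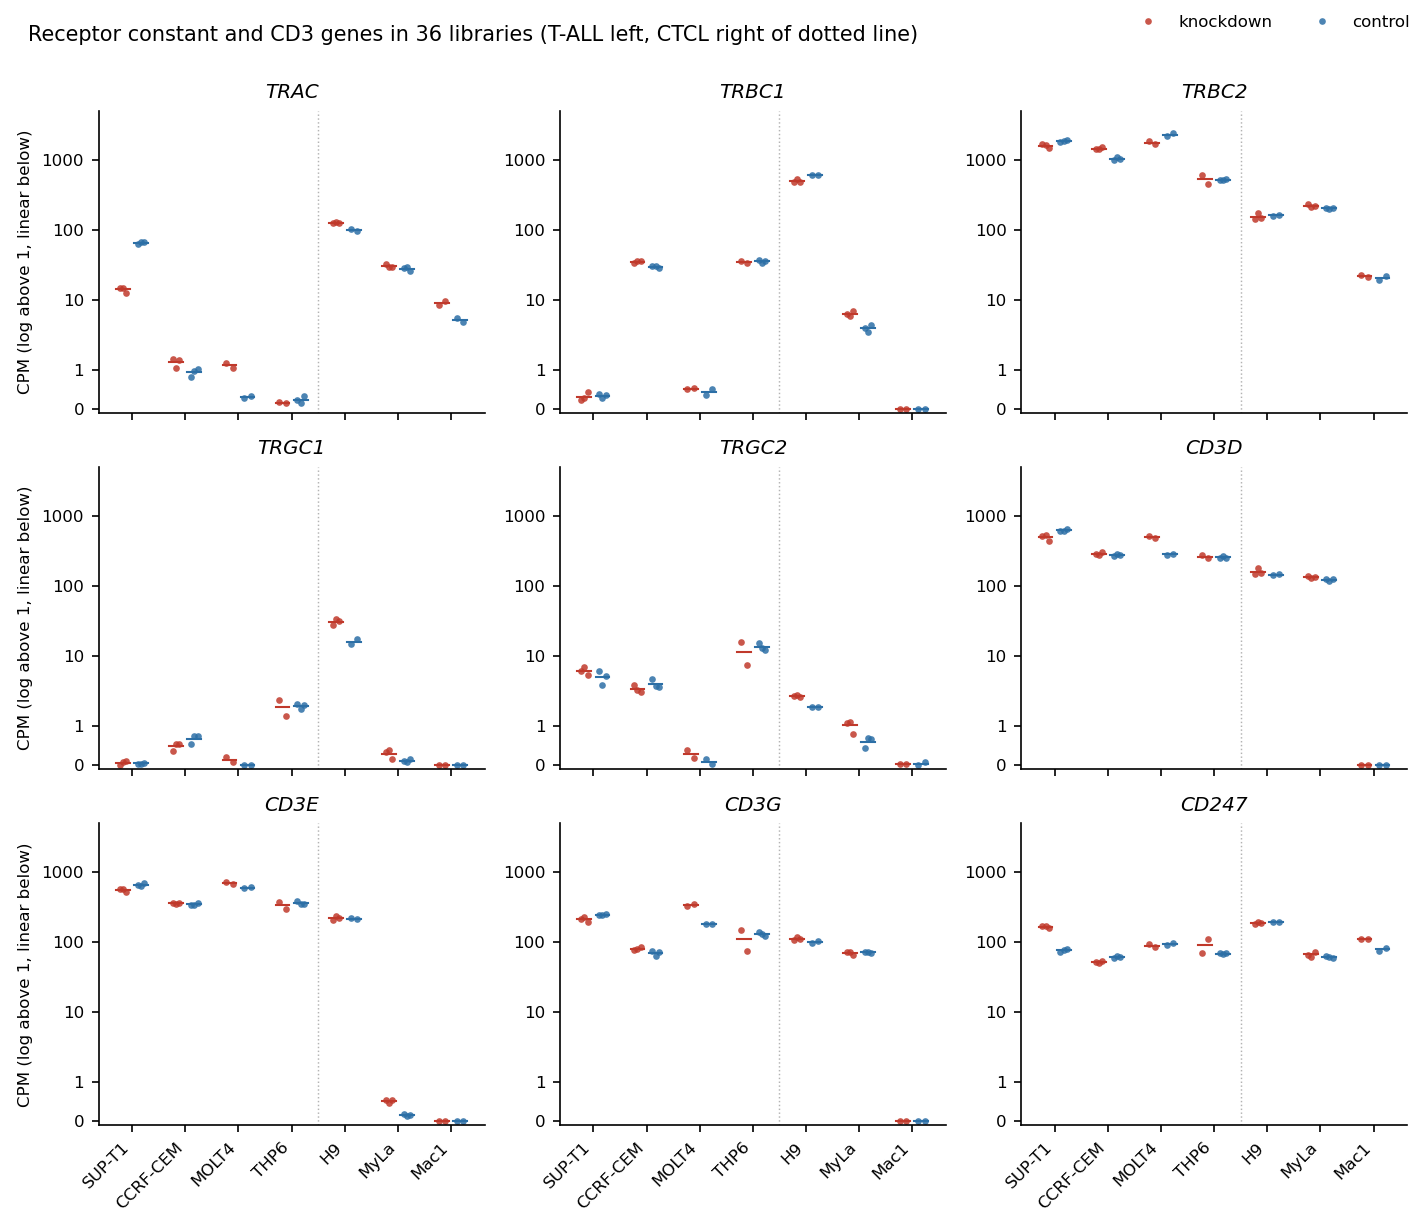
Level of each gene in every library, in CPM (log axis above 1, linear below), by line, with knockdown libraries left of control libraries and a bar at each mean; T-ALL lines are left of the dotted line and CTCL lines right of it. TRDC, at 0 counts in all 36 libraries, is not drawn. TRBC1 spans from 0 in Mac1 to 611 CPM in H9, and Mac1 sits at 0 for CD3D, CD3E and CD3G.

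The constant genes of each pair differ at a handful of bases, which limits how reads divide between them, so the differing stretch is shown. TRBC1 lies at chr7:142791694-142793368 and TRBC2 at chr7:142801041-142802748 (GRCh38, GENCODE 29, both on the plus strand), with their starts 9347 bases apart. Their first exons, of 387 bases, differ at 7 bases (98.2% identity), and the longest run they share is 173 bases. The stretches below are the first 120 bases of exon 1, chr7:142791694-142791813 and chr7:142801041-142801160, with differing bases in capitals.
TRBC1: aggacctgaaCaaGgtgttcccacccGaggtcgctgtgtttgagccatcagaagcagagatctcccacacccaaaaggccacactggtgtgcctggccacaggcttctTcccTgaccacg
TRBC2: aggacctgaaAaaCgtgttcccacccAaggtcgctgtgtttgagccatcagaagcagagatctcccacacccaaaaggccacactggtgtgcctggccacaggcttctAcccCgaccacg
Counted from 1 at the 5′ end of the exon, with TRBC1's base first, these are C11A, G14C, G27A, T109A and T113C. TRGC1 (chr7:38257879-38265678) and TRGC2 (chr7:38239580-38249572) lie on the minus strand of the same chromosome, and their first exons, of 330 bases, differ at 6 bases, again 98.2% identity. The stretches are chr7:38265559-38265678 and chr7:38249453-38249572 on the minus strand.
TRGC1: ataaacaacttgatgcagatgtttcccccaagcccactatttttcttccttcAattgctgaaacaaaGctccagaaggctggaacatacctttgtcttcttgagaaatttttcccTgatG
TRGC2: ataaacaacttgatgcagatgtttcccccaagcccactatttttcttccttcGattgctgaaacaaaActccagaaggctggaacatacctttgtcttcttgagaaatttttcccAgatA
With TRGC1's base first, these are A53G, G68A, T116A and G120A. The values are expected counts, in which reads that match several genes are shared out by a model, so the division between copies is less certain than their sum, and the fit was repeated with each pair summed.

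Across the 7 lines, 58 of the gene and line pairs had counts, and 17 of them passed the threshold, 13 higher and 4 lower in knockdown libraries. A change is called here at an adjusted p under 0.05, from edgeR's quasi-likelihood test with Benjamini-Hochberg adjustment over 21138 tested genes. Without SUP-T1 there were 12 higher and 1 lower among 49 pairs. These are 29.3% and 26.5% of pairs, beside 9.04% and 7.77% of all gene and line pairs tested in the same lines, a background that includes genes with far fewer counts.

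MOLT4 had the most calls: TRAC, TRGC1, CD3D and CD3G rose and TRBC2 fell, 4 and 1 of 9 members, against 8.88% of tested genes higher and 10.3% lower. In SUP-T1, CD247 was higher and TRAC, CD3D and CD3E were lower in the libraries labelled knockdown, 1 and 3 of 9, against 8.14% and 8.57%. CCRF-CEM had TRBC2 higher, 1 of 9, and none lower, against 3% and 5.43%. THP6 had CD247 higher, 1 of 9, and none lower, against 5.56% and 1.84%. In H9, TRAC and TRGC1 rose, 2 of 9, and none fell, against 0.852% and 0.965%. In MyLa, TRBC1 and CD3E rose, 2 of 9, and none fell, against 1.02% and 0.861%. In Mac1, TRAC and CD247 rose, 2 of the 4 members with counts, and none fell, against 5.54% and 2.35%. With so few members a line, the single calls in CCRF-CEM and THP6 cannot be set apart from these shares. Nor can the 1 lower call in MOLT4 or the 1 higher call in SUP-T1. The median log2 fold change of members with counts was -0.21 in SUP-T1 by its labels, and in the other lines lay between -0.038 in THP6 and 0.84 in MOLT4, against 0 over all tested genes in each line.

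**Figure D2:**
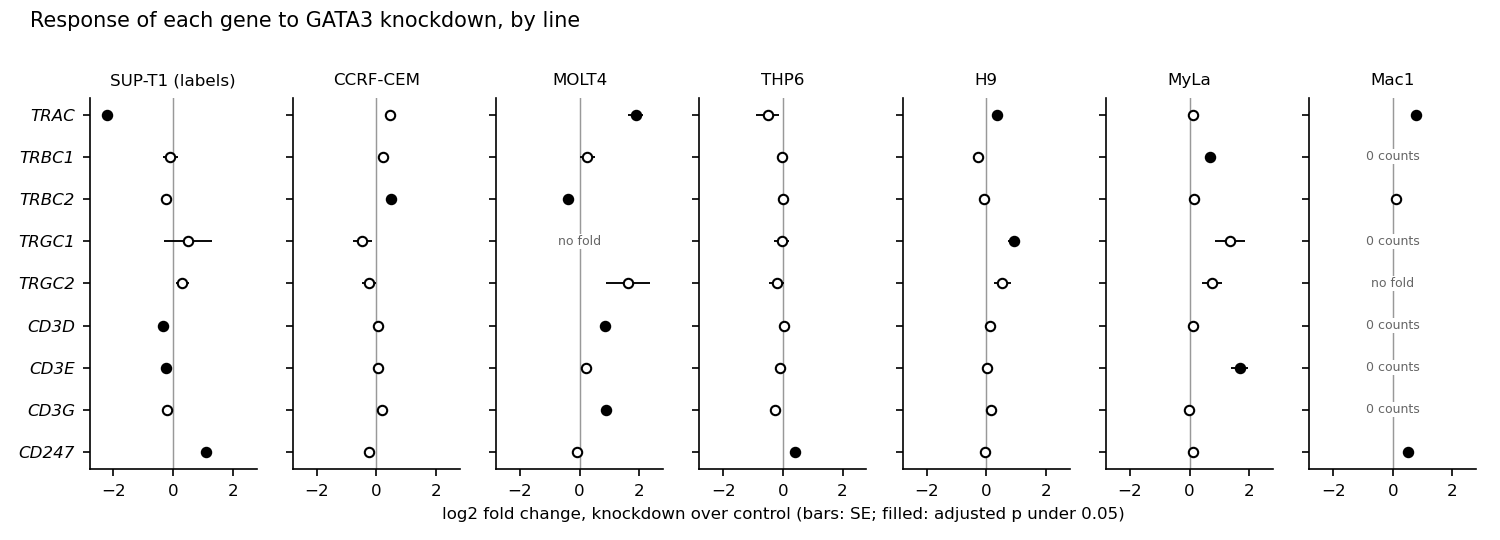
Log2 fold change of each gene, knockdown over control, in each line (points; bars are SE; filled points passed an adjusted p of 0.05). MOLT4 holds filled points to the right for TRAC, CD3D and CD3G; SUP-T1, drawn by its labels, holds TRAC far to the left. Pairs with 0 counts in both groups are written in, and no fold is drawn where 1 group had 0 counts or neither had over 3. Bars can be too short where counts are few, as for TRAC in MOLT4 and CD3E in MyLa.

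TRAC, the alpha chain constant gene (chr14:22547506-22552154), changed in 4 lines. By the labels, SUP-T1 went in the opposite direction to the others. By GATA3 level these 4 lines ran alike, with more TRAC in the libraries with less GATA3. In SUP-T1 it was 14.9, 14.7 and 12.6 CPM in libraries labelled knockdown and 62.4, 66.5 and 67.3 CPM in those labelled control, a log2 fold change of -2.22 (SE 0.09, edgeR adjusted p = 4.04e-17). The groups were far apart, and the libraries with more GATA3 had less TRAC. MOLT4 carried little TRAC, with 1.23 and 1.08 CPM (36 and 31 counts) in knockdown libraries and 0.288 and 0.331 CPM (8 and 10 counts) in control libraries. That was a log2 fold change of 1.88 (SE 0.25, adjusted p = 2.33e-06), with both knockdown libraries above both controls. In Mac1 it was 8.37 and 9.63 CPM in knockdown libraries and 5.55 and 4.84 CPM in controls, 0.79 on the log2 scale (SE 0.12, adjusted p = 3.95e-05). In H9, knockdown libraries had 126, 128 and 124 CPM and controls 101 and 95.1 CPM, 0.36 on the log2 scale (SE 0.09, adjusted p = 0.0271). The H9 groups did not overlap, but the call was lost without any 1 of the 5 libraries. Leaving out knockdown 1, 2 or 3 gave adjusted p = 0.0860, 0.115 and 0.0588, and leaving out control 1 or 2 gave 0.190 and 0.399, with log2 fold changes of 0.30 to 0.39. With no filter on low counts the H9 adjusted p was 0.182, in a fit of H9 alone 0.0548, and with replicate number as a block 0.140.

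TRAC did not pass in the other 3 lines. MyLa had 32.0, 29.2 and 29.3 CPM in knockdown libraries and 28.3, 29.1 and 26.1 CPM in controls (0.12, SE 0.08, adjusted p = 0.693). CCRF-CEM had 1.41, 1.08 and 1.39 CPM in knockdown libraries and 0.811, 0.970 and 1.03 CPM in controls (0.45, SE 0.17, adjusted p = 0.235). THP6 had the lowest level, 5 and 4 counts in knockdown libraries and 7, 4 and 7 in controls. In RNA from a whole culture, fewer cells with a transcript and less of it per cell cannot be told apart.

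TRBC2 was the leading beta constant gene in 6 lines and TRBC1 in H9. TRBC1 made up 76.8% ± 0.896 of the counts of the pair in H9 knockdown libraries (SD, n = 3) and 79.2% ± 0.240 in controls (n = 2). Its share was at most 6.99% in any library of the other lines, and Mac1 had 0 TRBC1 counts in all 4 libraries. In H9, TRBC1 was 483, 535 and 486 CPM in knockdown libraries and 606 and 611 CPM in controls, -0.28 on the log2 scale (SE 0.08, adjusted p = 0.0608). That missed the threshold with no overlap between groups; it passed with DESeq2 (adjusted p = 0.000481), limma-voom (0.000957), DESeq2 size factors (0.0489), the filter of 10 counts in 2 libraries (0.0488) and without knockdown 2 (0.0247). MyLa was the 1 line in which TRBC1 passed, with 6.31, 5.78 and 6.85 CPM in knockdown libraries and 4.0, 3.42 and 4.33 CPM in controls (0.69, SE 0.10, adjusted p = 7.65e-05). TRBC1 was 2.78% ± 0.224 of the pair in MyLa knockdown libraries and 1.91% ± 0.196 in controls (SD). TRBC2 did not pass there (221 ± 11.9 CPM in knockdown and 201 ± 2.77 CPM in control libraries, adjusted p = 0.599), nor did the 2 genes summed (0.14, adjusted p = 0.514). CCRF-CEM had 33.5, 35.2 and 35.7 CPM of TRBC1 in knockdown libraries and 30.0, 30.7 and 28.5 CPM in controls, apart but just short of the threshold (0.23, SE 0.07, adjusted p = 0.0556). It passed with DESeq2 (0.0238), limma-voom (0.0329), a fit of CCRF-CEM alone (0.0350) and without control 2 (0.0491). TRBC1 did not pass in THP6 (34.7 ± 1.36 CPM in knockdown and 35.3 ± 1.41 CPM in control libraries), MOLT4 (0.517 ± 0.00602 CPM in knockdown and 0.428 ± 0.0963 CPM in control libraries) or SUP-T1 (0.308 ± 0.104 CPM in libraries labelled knockdown and 0.332 ± 0.0547 CPM in those labelled control).

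TRBC2 moved in opposite directions in CCRF-CEM and MOLT4. In CCRF-CEM it was 1406, 1418 and 1489 CPM in knockdown libraries and 972, 1076 and 1011 CPM in controls (0.50, SE 0.08, adjusted p = 9.67e-05). In MOLT4, where it was at its highest, it was 1824 and 1663 CPM in knockdown libraries and 2180 and 2367 CPM in controls (-0.38, SE 0.10, adjusted p = 0.00570). With TRBC1 and TRBC2 summed the log2 fold changes were 0.50 in CCRF-CEM (adjusted p = 3.87e-05) and -0.38 in MOLT4 (0.00352). Without CCRF-CEM control 2, which stood apart from the other controls, TRBC2 was 0.57 higher on the log2 scale (0.000181). Neither pair of groups overlapped, but the MOLT4 call was lost without knockdown 2 (adjusted p = 0.0998) and without control 2 (0.0893). SUP-T1 had 1644, 1641 and 1477 CPM in libraries labelled knockdown and 1807, 1838 and 1923 CPM in those labelled control (-0.23, SE 0.08, adjusted p = 0.0544). That narrow miss passed with TRBC1 and TRBC2 summed (0.0375), DESeq2 (0.0272), limma-voom (0.0164) and a fit of SUP-T1 alone (0.0490). In THP6 the 2 knockdown libraries, at 593 and 449 CPM, lay on both sides of the controls at 511, 510 and 526 CPM. H9 averaged 152 ± 16.4 CPM in knockdown and 160 ± 3.16 CPM in control libraries, and Mac1 22.0 ± 1.14 CPM in knockdown and 20.5 ± 1.87 CPM in control libraries, with no call in either.

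**Figure D3:**
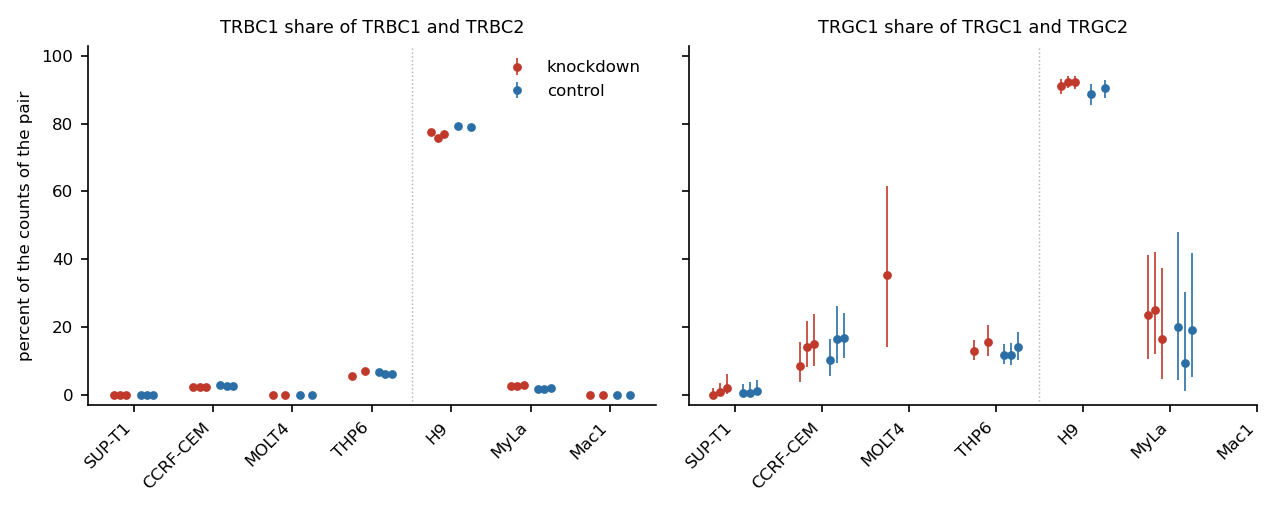
Share of TRBC1 in the counts of TRBC1 and TRBC2 (left) and of TRGC1 in those of TRGC1 and TRGC2 (right), in percent, for each library with at least 10 counts of the pair; bars are 95% Clopper-Pearson intervals, which cover counting error only. H9 stands alone at the top of both panels, with 76.8% TRBC1 in knockdown and 79.2% in control libraries.

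The gamma constant genes were low in all lines, and H9 again stood apart in its choice of copy. TRGC1 was 91.9% ± 0.707 of the gamma pair in H9 knockdown libraries and 89.6% ± 1.10 in controls (SD), while in SUP-T1, CCRF-CEM and THP6 TRGC2 held the larger share. H9 had 28.0, 33.4 and 31.2 CPM of TRGC1 in knockdown libraries and 14.7 and 17.5 CPM in controls (0.94, SE 0.21, adjusted p = 0.0108). All knockdown libraries were above both controls. The call was lost without knockdown 2 (adjusted p = 0.0665), without control 1 (0.329) and without control 2 (0.0822), and with the pair summed the log2 fold change was 0.89 (adjusted p = 0.0240). In MOLT4, TRGC1 had 6 and 2 counts in knockdown libraries and 0 and 0 in controls (adjusted p = 0.00925). Against a limit of 3 counts over the control group this is at least 2.67-fold higher, and without knockdown 1 the adjusted p was 0.180, without control 1 0.0729 and without control 2 0.0803. These 8 counts give no firmer size. TRGC1 in MyLa, at 8, 9 and 4 counts in knockdown libraries and 3, 2 and 4 in controls, did not pass (adjusted p = 0.248).

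TRGC2 passed in no line with edgeR, DESeq2 or limma-voom when counted apart from TRGC1; in MyLa and MOLT4 its unadjusted p was under 0.05 (0.0311 and 0.0328). It was highest in THP6, at 15.7 and 7.50 CPM in knockdown libraries and 15.2, 13 and 12.1 CPM in controls (-0.22, SE 0.24, adjusted p = 0.656). The THP6 knockdown libraries differed by more than the controls did, and without knockdown 1 the log2 fold change was -0.85 (adjusted p = 0.00684). In SUP-T1 it averaged 6.18 ± 0.872 CPM in libraries labelled knockdown and 4.99 ± 1.13 CPM in those labelled control, and in CCRF-CEM 3.41 ± 0.436 CPM in knockdown and 4.04 ± 0.589 CPM in control libraries. H9 had 2.73, 2.78 and 2.58 CPM in knockdown libraries and 1.85 and 1.86 CPM in controls, apart but not called (0.54, SE 0.29, adjusted p = 0.543). MOLT4 had 11 and 5 counts in knockdown libraries and 4 and 1 in controls (adjusted p = 0.123), and passed with TRGC1 and TRGC2 summed (0.0315). MyLa averaged 1.02 ± 0.195 CPM in knockdown and 0.600 ± 0.146 CPM in control libraries (adjusted p = 0.380), and Mac1 had 2 counts in each group. TRGC1 did not pass in CCRF-CEM (9, 16 and 14 counts in knockdown and 14, 14 and 23 in control libraries), THP6 or SUP-T1. TRDC, the delta constant gene at chr14:22462932-22465787, had 0 counts in all 36 libraries, which allows up to 0.0730 to 0.162 CPM per library at 3 counts. TRDC RNA was not detectable in any line at this depth.

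CD3D and CD3G rose together in MOLT4. These genes lie head to head at chr11:118338954-118342744 (minus strand) and chr11:118344344-118355161 (plus strand), with starts 1600 bases apart, and CD3E is in the same cluster of 50616 bases at chr11:118304545-118316175. CD3D was 520 and 489 CPM in MOLT4 knockdown libraries and 277 and 287 CPM in controls (0.84, SE 0.09, adjusted p = 6.88e-08). CD3G was 325 and 349 CPM in knockdown libraries and 185 and 180 CPM in controls (0.88, SE 0.16, adjusted p = 0.000175). Both genes' groups were far apart. CD3E, which pairs with each of the others in the complex, was 714 and 675 CPM in knockdown libraries and 601 and 606 CPM in controls, without overlap but below the threshold (0.20, SE 0.09, adjusted p = 0.102); it passed with limma-voom (0.0472) and in a fit of MOLT4 alone (0.0135).

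In SUP-T1, CD3D and CD3E were lower in the libraries labelled knockdown. CD3D was 509, 539 and 436 CPM in libraries labelled knockdown and 608, 608 and 649 CPM in those labelled control (-0.33, SE 0.07, adjusted p = 0.00162). CD3E was 576, 585 and 525 CPM in libraries labelled knockdown and 659, 639 and 694 CPM in those labelled control (-0.24, SE 0.07, adjusted p = 0.0157). CD3G was 216, 229 and 197 CPM in libraries labelled knockdown and 243, 243 and 255 CPM in those labelled control, and did not pass (-0.21, SE 0.13, adjusted p = 0.333). All 3 had every library labelled knockdown below every one labelled control. The share of all tested genes with groups apart in this way was not counted. The CD3E call was lost without knockdown 3 (adjusted p = 0.0836), without control 3 (0.0659) and with no filter (0.0677). CD3E in MyLa was close to 0. It had 13, 11 and 14 counts in knockdown libraries and 5, 4 and 4 in controls (0.529 ± 0.0471 CPM in knockdown and 0.162 ± 0.0170 CPM in control libraries, SD), and rose by 1.68 on the log2 scale (SE 0.28, adjusted p = 0.00842). That call was lost without knockdown 3 (adjusted p = 0.0550) and without control 2 (0.0591).

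CD3D and CD3G did not pass in H9, MyLa, CCRF-CEM or THP6, nor did CD3E in H9, CCRF-CEM or THP6. In H9, CD3D averaged 160 ± 16.6 CPM in knockdown and 146 ± 0.395 CPM in control libraries, and in CCRF-CEM 289 ± 13.6 CPM in knockdown and 280 ± 7.47 CPM in control libraries. CD3E averaged 222 ± 13.2 CPM in H9 knockdown and 217 ± 5.44 CPM in H9 control libraries, and 361 ± 6.17 CPM in CCRF-CEM knockdown and 351 ± 13.1 CPM in CCRF-CEM control libraries. CD3G averaged 113 ± 4.37 CPM in H9 knockdown and 102 ± 3.79 CPM in H9 control libraries, and 80.9 ± 4.10 CPM in CCRF-CEM knockdown and 70.6 ± 6.40 CPM in CCRF-CEM control libraries, with no overlap in either line. MyLa CD3D was 134 ± 4.60 CPM in knockdown and 123 ± 3.67 CPM in control libraries, and MyLa CD3G 70.4 ± 3.41 CPM in knockdown and 71.8 ± 2.24 CPM in control libraries. THP6 CD3D averaged 261 ± 19.5 CPM in knockdown and 257 ± 11.6 CPM in control libraries. In THP6, CD3G was 149 and 74.6 CPM in knockdown libraries and 142, 133 and 125 CPM in controls. One THP6 knockdown library lay above the controls and the other far below, so without knockdown 1 the log2 fold change was -0.84 (adjusted p = 1.23e-07), and without knockdown 2 it was 0.16 (0.632). THP6 CD3E was 378 and 297 CPM in knockdown libraries and 390, 354 and 349 CPM in controls. Its higher knockdown library lay within the control range and the other below it, and it passed without knockdown 1 (-0.30, adjusted p = 0.00381).

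CD247, the zeta chain gene (chr1:167430640-167518610), was the member with calls in SUP-T1, Mac1 and THP6. In SUP-T1 it was 169, 171 and 162 CPM in libraries labelled knockdown and 72.8, 78.4 and 80.0 CPM in those labelled control (1.12, SE 0.09, adjusted p = 6.15e-10), opposite in sign to the other 3 calls there. In Mac1, the line without CD3D, CD3E or CD3G RNA, it was 111 and 113 CPM in knockdown libraries and 76.4 and 81.9 CPM in controls (0.50, SE 0.12, adjusted p = 0.00589), a call lost without control 1 (adjusted p = 0.0832). The groups did not overlap in either line. In THP6 it was 70.3 and 113 CPM in knockdown libraries and 70.5, 67.3 and 69.4 CPM in controls (0.41, SE 0.11, adjusted p = 0.0164). Knockdown 1 lay among the controls, and without knockdown 2 the log2 fold change was 0.03 (adjusted p = 1); the call was also lost without control 2 (0.0639), in a fit of THP6 alone (0.753) and with replicate number as a block (0.129). CCRF-CEM had 52.5 ± 1.71 CPM in knockdown and 61.7 ± 2.26 CPM in control libraries (-0.23, SE 0.10, adjusted p = 0.151), without overlap. None of the rest passed. H9 averaged 190 ± 6.46 CPM in knockdown and 194 ± 1.85 CPM in control libraries, MyLa 67.0 ± 5.71 CPM in knockdown and 62.0 ± 1.76 CPM in control libraries, and MOLT4 89.9 ± 4.64 CPM in knockdown and 95.1 ± 4.43 CPM in control libraries.

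The start regions of CD3D and CD247 are shown because their responses passed in SUP-T1 with opposite signs, and no other member had an entry in the RefSeq promoter table used here. Each window holds 250 bases before and 50 after the annotated start (GRCh38.p14), chr11:118342656-118342955 and chr1:167518480-167518779, both read on the minus strand. Capitals mark a match to a form of the sequence that GATA factors bind, searched on both strands. The forms searched were AGATAA and AGATAG, and with T in the first place TGATAA and also TGATAG.
CD3D: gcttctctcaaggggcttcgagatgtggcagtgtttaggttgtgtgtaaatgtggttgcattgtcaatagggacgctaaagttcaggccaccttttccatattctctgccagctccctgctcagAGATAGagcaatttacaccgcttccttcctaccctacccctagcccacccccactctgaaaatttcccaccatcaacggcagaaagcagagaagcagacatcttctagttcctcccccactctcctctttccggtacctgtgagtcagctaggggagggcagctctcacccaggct
CD247: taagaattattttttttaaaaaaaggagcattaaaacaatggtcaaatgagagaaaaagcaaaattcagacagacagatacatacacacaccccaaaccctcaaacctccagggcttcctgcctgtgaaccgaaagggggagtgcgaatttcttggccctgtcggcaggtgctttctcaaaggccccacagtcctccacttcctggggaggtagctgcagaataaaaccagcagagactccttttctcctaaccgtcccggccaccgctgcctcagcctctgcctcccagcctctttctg
CD3D had 1 match, AGATAG at -126 on its own strand, and CD247 had none. Of 35116 promoter windows of this length, 25% held a match, so these matches describe letters only.

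The response differed between lines for most members. The test that the log2 responses were equal passed for 8 of 9 tested members over 7 lines, where 35.2% of all tested genes passed, and for 8 of 9 over the 6 lines without SUP-T1, where 25% passed. TRGC2 did not pass (adjusted p = 0.106 over 7 lines and 0.0966 over 6), but passed without THP6 knockdown 1 (0.00195 over 7 lines and 0.00182 over 6). For TRAC the adjusted p was 1.81e-15 over 7 lines, which rests on SUP-T1 by its labels, and 6.77e-05 over 6 lines. The difference for CD3D and CD3G over 6 lines rested on MOLT4: without it the adjusted p was 0.960 for CD3D and 0.428 for CD3G, and over 7 lines without MOLT4 it was 0.313 for CD3G. No mean response over lines passed with edgeR on counts summed per line and arm, for any of the 9 members or any of 20773 genes (0%), and no member had an unadjusted p under 0.05. The mean log2 responses ran from 0.0076 for TRBC2 to 0.51 for TRGC1. They include SUP-T1 by its labels, so TRAC's mean of 0.057 (SE 0.37) takes in -2.22 from SUP-T1, and CD247's mean of 0.25 takes in 1.12. Without SUP-T1 the mean was 0.50 for TRGC1, 0.13 for TRBC1 and 0.17 for CD3G, and none passed. Between the T-ALL and CTCL classes no difference of the response passed, in any member or any gene (0%). There were 0 members at an unadjusted p under 0.05, and class differences ran from -0.95 for TRGC1 to 0.096 for CD247. As neither the mean test nor the class test called any gene, neither can show that responses were absent or alike. TRAC's class difference of -0.84 rested on SUP-T1 by its labels, where GATA3 runs against them, and was 0.34 without that line.

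Neighbours in each member's order of control levels gave 53 pairs of lines with counts, of which 38 differed. Over all 21 pairs of control groups, near and far in level, 63% of genes passed, so the shares are not of like pairs. SUP-T1 enters by its label as control, so its places hold for that label alone. For TRAC the order was H9, SUP-T1, MyLa, Mac1, CCRF-CEM, MOLT4 and THP6, and only MOLT4 and THP6, at 0.309 and 0.235 CPM, did not differ (adjusted p = 0.420). SUP-T1 had 65.4 CPM in libraries labelled control but 14.1 CPM in those labelled knockdown, below MyLa controls at 27.8 CPM. For TRBC1 it was H9, THP6, CCRF-CEM, MyLa, MOLT4, SUP-T1 and Mac1, with MOLT4 and SUP-T1 not differing (0.428 and 0.332 CPM). For TRBC2 the T-ALL lines held the top of the order, MOLT4, SUP-T1, CCRF-CEM and THP6, followed by MyLa, H9 and Mac1, and every neighbour differed. TRGC1 ran H9, THP6, CCRF-CEM, MyLa and SUP-T1, where MyLa and SUP-T1 did not differ (adjusted p = 0.120), nor SUP-T1 and Mac1 (0.0730), with Mac1 and MOLT4 at 0. TRGC2 ran THP6, SUP-T1, CCRF-CEM, H9, MyLa, MOLT4 and Mac1, with SUP-T1 not differing from CCRF-CEM and MOLT4 not from Mac1.

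The CD3 genes had 0 counts in Mac1, and SUP-T1 libraries labelled control headed each order. In SUP-T1 libraries labelled knockdown CD3E was 562 CPM, below MOLT4 controls at 604 CPM, CD3D 495 CPM and CD3G 214 CPM, above MOLT4 controls at 282 and 183 CPM. CD3D ran SUP-T1, MOLT4, CCRF-CEM, THP6, H9, MyLa and Mac1, and MOLT4, CCRF-CEM and THP6 did not differ as neighbours (282, 280 and 257 CPM). CD3E ran SUP-T1, MOLT4, THP6, CCRF-CEM, H9, MyLa and Mac1, and neither SUP-T1 and MOLT4 (664 and 604 CPM) nor THP6 and CCRF-CEM differed. CD3G ran SUP-T1, MOLT4, THP6, H9, MyLa, CCRF-CEM and Mac1, with MyLa and CCRF-CEM at 71.8 and 70.6 CPM not differing. The zeta gene CD247 was the most even, from 194 CPM in H9 to 61.7 CPM in CCRF-CEM, and from Mac1 downward no neighbours differed. SUP-T1 takes its place there, at 77.0 CPM, by its label as control. Its libraries labelled knockdown had 167 CPM, above MOLT4 controls at 95.1 CPM. Between classes, TRBC2 was 3.45 higher on the log2 scale in the 4 T-ALL controls than in the 3 CTCL controls (SE 0.90, adjusted p = 0.183, the 1 member at an unadjusted p under 0.05). No member passed, against 0.28% of 18565 genes; without H9, CD3E passed (adjusted p = 0.0212), with the remaining CTCL controls at 0.162 CPM in MyLa and 0 in Mac1.

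Per kilobase of exon, which allows genes to be compared, TRBC2 led in every T-ALL control group, with 3000 CPM per kb in MOLT4, 2449 in SUP-T1, 1345 in CCRF-CEM and 681 in THP6. TRAC was 67.0, 0.959, 0.317 and 0.240 CPM per kb in SUP-T1, CCRF-CEM, MOLT4 and THP6. RNA of the constant gene TRBC2 thus exceeded that of TRAC by a wide margin in each of these lines. How much of either came from rearranged chains was not tested. In H9 the leading genes were TRBC1 at 801 CPM per kb, TRBC2 at 211, CD3D at 157 and TRAC at 100. MyLa had TRBC2 at 265 and CD3D at 133, against 28.5 for TRAC and 0.0568 for CD3E. Mac1 had TRBC2 at 27.0, CD247 at 19.6 and TRAC at 5.32 CPM per kb. Among the CD3 genes CD3D was the highest per kilobase in every line that had them.

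**Figure D4:**
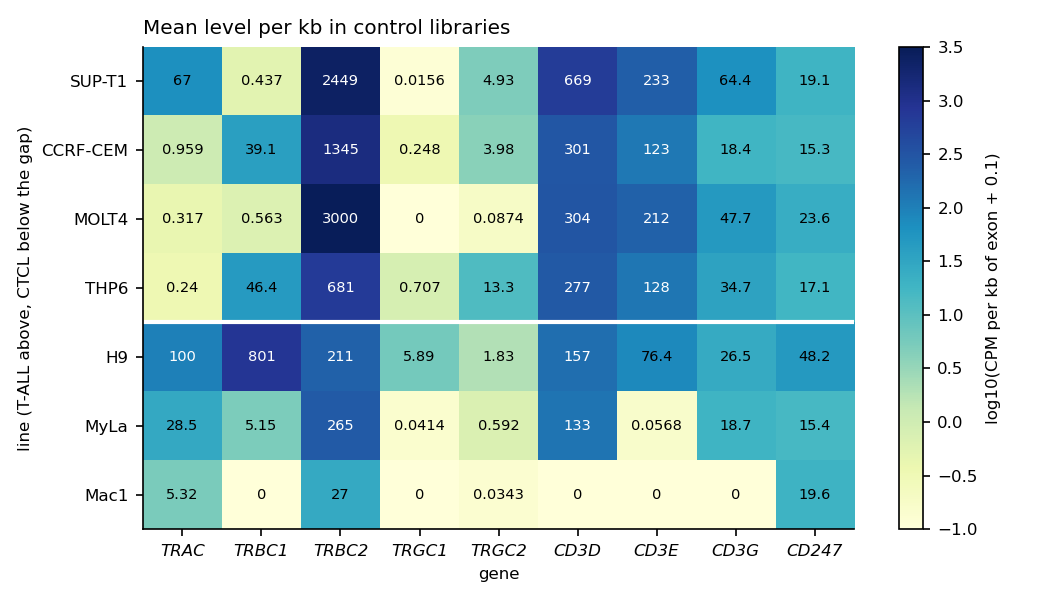
Mean level per kilobase of exon in control libraries, by line (rows) and gene (columns), with the value in each cell and colour by log10(CPM per kb + 0.1). TRBC2 is the highest cell in each T-ALL row, up to 3000 CPM per kb in MOLT4, and Mac1 is at 0 for TRBC1, TRGC1, CD3D, CD3E and CD3G. TRDC, at 0 in every line, is not drawn.

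A rearranged transcript carries a variable segment as well as the constant gene, so the leading segment of each line is set beside the constant gene. These counts need not come from the same transcripts. TRGV3 in MyLa control libraries averaged 2.55 CPM, against 0.113 CPM for TRGC1 and 0.600 CPM for TRGC2. For the beta chain 1 segment led by a wide margin in 6 lines: TRBV13 in H9, TRBV6-5 in MyLa, TRBV9 in SUP-T1, TRBV3-1 in CCRF-CEM and THP6, and TRBV20-1 in MOLT4. The leading TRBV segment of Mac1, TRBV20OR9-2, averaged 0.0645 ± 0.0223 CPM in knockdown and 0.0348 ± 0.0492 CPM in control libraries, 2 counts in the controls. TRBV3-1 in CCRF-CEM averaged 337 ± 7.73 CPM in knockdown and 221 ± 14.2 CPM in control libraries (0.61, SE 0.12, adjusted p = 0.00438), the direction of TRBC2 there. TRBV20-1 in MOLT4 averaged 828 ± 23.8 CPM in knockdown and 1129 ± 0.431 CPM in control libraries (-0.45, SE 0.12, adjusted p = 0.0163), again the direction of TRBC2. TRBV9 in SUP-T1 averaged 336 ± 9.96 CPM in libraries labelled knockdown and 425 ± 12.8 CPM in those labelled control (-0.34, SE 0.08, adjusted p = 0.00674).

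Alpha segments were sparser. TRAV1-1 in SUP-T1 averaged 0.579 ± 0.112 CPM in libraries labelled knockdown and 2.10 ± 0.120 CPM in those labelled control (-1.86, SE 0.32, adjusted p = 0.00119), beside -2.22 for TRAC. H9 had TRAV20 and TRAV8-6 at like levels, 18.5 and 18 CPM in control libraries. TRAV20 did not pass, at 19.6 ± 1.33 CPM in knockdown and 18.5 ± 1.36 CPM in control libraries. The leading alpha segments of MyLa (TRAV4), Mac1 (TRAV13-1), CCRF-CEM and THP6 (TRAV22) and MOLT4 (TRAV1-1) did not pass either. TRGV5 in H9 averaged 8.86 ± 1.21 CPM in knockdown and 4.94 ± 0.651 CPM in control libraries (0.84, SE 0.29, adjusted p = 0.211), without overlap, beside 0.94 for TRGC1. TRGV3 led in MyLa, SUP-T1, CCRF-CEM and THP6, TRGV5 also in Mac1, and the leading delta segment had at most 1 count in the controls of any line.

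Other genes of the receptor pathway were described from lists, by counts and medians and without a set test. They are set beside the share of all tested genes called in each line. Counts in CCRF-CEM, THP6, H9 and SUP-T1 were not repeated without the libraries that stood apart. Of 9 coreceptors and T cell surface antigens, 7 rose and none fell in MOLT4 (8.88% and 10.3% of all tested genes), with a median log2 fold change of 0.89 against 0 over all tested genes. CD7 averaged 359 ± 29.1 CPM in knockdown and 17.6 ± 1.09 CPM in control libraries (4.35, SE 0.13, adjusted p = 2.32e-18), and CD8A 64.3 ± 0.397 CPM in knockdown and 34.6 ± 0.610 CPM in control libraries. In CCRF-CEM 1 of the 9 rose, CD2, and 5 fell, among them CD28 and CD8A (3% and 5.43%). SUP-T1 had CD8A higher and 3 lower, among them CD6 and CD5, by the labels (8.14% and 8.57%). CD28 rose in H9, to 17.3 ± 1.69 CPM in knockdown libraries against 4.19 ± 0.355 CPM in controls (adjusted p = 1.15e-08), the 1 call there (0.852% and 0.965%). CD4 rose in Mac1 (277 ± 10.6 CPM in knockdown and 185 ± 6.66 CPM in control libraries), the 1 call there (5.54% and 2.35%), and in MOLT4 (5.60 ± 0.106 CPM in knockdown and 3.15 ± 0.335 CPM in control libraries, adjusted p = 0.00145). In THP6 it was the 1 call (5.56% and 1.84%), at 14 ± 4.66 CPM in knockdown and 8.81 ± 0.520 CPM in control libraries, and MyLa had none (1.02% and 0.861%).

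Of 20 kinases and adaptors downstream of the receptor, 2 rose and 3 fell in MOLT4, near the 8.88% and 10.3% of all tested genes. LCK, the kinase that phosphorylates CD3 and zeta, averaged 898 ± 9.47 CPM in knockdown and 670 ± 16.1 CPM in control libraries (0.42, adjusted p = 0.00237). LAT, the adaptor that ZAP70 phosphorylates, also rose there, while RASGRP1 and FYB1 fell. SUP-T1 had 2 higher, RASGRP1 and FYB1, and 6 lower, among them LAT and LCP2, by the labels (8.14% and 8.57%). CCRF-CEM had PTPRC and RASGRP1 higher and 6 lower, among them SH2D2A (3% and 5.43%). THP6 had 4 higher and 1 lower (5.56% and 1.84%), with knockdown libraries as far apart as 82.6 ± 74.3 CPM for THEMIS, against 15.5 ± 0.719 CPM in controls. Mac1 had 3 higher, among them LAT and PTPRC, and 2 lower, among them SKAP1 (5.54% and 2.35%). H9 had SH2D2A higher (0.852%) and MyLa RASGRP1 (1.02%). Of 14 negative regulators, SUP-T1 had 2 higher (UBASH3B and CSK) and 4 lower, CCRF-CEM 1 and 3, MOLT4 3 and 4, THP6 2 and 2, Mac1 4 and 0, and H9 and MyLa none, against the same shares of all tested genes. Single calls, as the 1 higher in CCRF-CEM, cannot be set apart from those shares.

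Of 4 pre-receptor and recombination genes, SUP-T1 and MOLT4 had 1 higher and 1 lower each, CCRF-CEM 2 higher, THP6 1 lower and the CTCL lines none, too few to set against shares of 8.14% and 8.57% in SUP-T1, 8.88% and 10.3% in MOLT4, 3% and 5.43% in CCRF-CEM and 5.56% and 1.84% in THP6. PTCRA, the partner of the beta chain before the alpha chain, was present in SUP-T1 and MOLT4. It averaged 147 ± 5.36 CPM in SUP-T1 libraries labelled knockdown and 222 ± 17.8 CPM in those labelled control (-0.59, SE 0.08, adjusted p = 4.46e-05). In MOLT4 it averaged 25.9 ± 0.326 CPM in knockdown and 17.3 ± 0.0361 CPM in control libraries (0.58, SE 0.10, adjusted p = 0.000633). PTCRA had 0 counts in H9, MyLa, Mac1 and CCRF-CEM and averaged 0.0522 ± 0.0248 CPM in THP6 knockdown and 0.0999 ± 0.0366 CPM in THP6 control libraries. RAG1, a recombinase subunit, rose in CCRF-CEM (84.7 ± 2.497 CPM in knockdown and 54.9 ± 5.55 CPM in control libraries) and fell in MOLT4 (136 ± 15.6 CPM in knockdown and 221 ± 7.11 CPM in control libraries). Of 15 transcription factors known for T lineage genes, 3 rose and 8 fell in MOLT4 (8.88% and 10.3% of all tested genes), 4 rose and 2 fell in CCRF-CEM (3% and 5.43%), and 1 rose and 3 fell in THP6 (5.56% and 1.84%). In H9 3 rose (0.852%), in MyLa 1 rose and 2 fell (1.02% and 0.861%), and in Mac1 2 rose (5.54%). In SUP-T1, 4 were higher and 5 lower by the labels (8.14% and 8.57%). ID2, an inhibitor of E proteins, was among the called genes in H9, Mac1, CCRF-CEM and MOLT4, higher in each, and TOX fell in MyLa and MOLT4.

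Summed markers of other cell types differed between the arms in some lines, with few or no single genes called. The summed level of 7 B cell genes was 28.4 to 39.7 CPM in Mac1 knockdown and 6.66 to 9.78 CPM in control libraries. There 2 of the 7 were over 1 CPM, 3 at 0 and 1 called higher, against 5.54% of all tested genes. In H9 the sum was 242 to 248.9 CPM in knockdown and 190 to 213 CPM in control libraries, with 2 of the 7 over 1 CPM and none called. The sum of 8 myeloid genes was 62.6 to 66.2 CPM in Mac1 knockdown and 39.6 to 44.6 CPM in control libraries, and 84.2 to 92.2 CPM in MyLa knockdown and 70.6 to 76.0 CPM in MyLa control libraries. None of the 8 was called in either line. In MOLT4 the B cell sum was 24.1 to 27.3 CPM in knockdown and 24.7 to 25.4 CPM in control libraries and the myeloid sum at most 1.09 CPM in any library. The myeloid sum was 3.29 to 5.25 CPM in CCRF-CEM knockdown and 1.08 to 2.44 CPM in CCRF-CEM control libraries, with 1 gene called higher (3% of all tested genes). It was 11.9 to 16.0 CPM in THP6 knockdown and 16.1 to 17.2 CPM in THP6 control libraries, also with 1 gene called higher (5.56%). These single calls cannot be set apart from those shares. The B cell sum was 17.4 to 19.0 CPM in CCRF-CEM knockdown and 27.4 to 29 CPM in control libraries, with 1 gene called lower (5.43%). It was 53.0 to 59.7 CPM in THP6 knockdown and 47.5 to 51.6 CPM in THP6 control libraries, with 2 genes called higher (5.56%). It was 2.28 to 2.54 CPM in SUP-T1 libraries labelled knockdown and 4.49 to 5.11 CPM in those labelled control, with 1 gene called lower (8.57%). The sum of 6 NK cell genes was highest in MOLT4, at 32.5 to 35.1 CPM in knockdown and 38.3 to 41.9 CPM in control libraries. There 1 gene was called higher (8.88%), against the direction of the sum. Sums of 5 erythroid genes stayed at or below 0.502 CPM in every library. Their part in the changes of the receptor genes was not tested.

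The genes whose levels followed each member most closely over the 14 group means were mostly not receptor genes, as described by Pearson's r of log2(CPM + 1) among 13962 genes. For CD3E these were ZFP14, TMEM9 and SCML2 (r = 0.997, 0.995 and 0.994), and for CD3D SNRPN, ATP2A3 and GCAT (0.985, 0.982 and 0.975). SNRPN was also the closest to CD3G (0.990), followed by HENMT1 and ZBTB14. TRGC1 was followed most closely by CXCR3, FGF17 and HECW1 (0.985, 0.980 and 0.979) and TRBC2 by FAM13B, STMN3 and CALM2 (0.974, 0.971 and 0.965). TRBC1 was followed by CSRP1, VPS33A and TRMT1L, TRAC by LINC00467, KNTC1 and DYNLT3, and TRGC2 by AC139493.2, NEK2 and PTPN7. CD247 had the weakest likeness, with EXOC4 at 0.887, then SLC12A5 and AL596244.1. These 14 points are 7 lines in both arms, so the values mostly describe which line a gene is high in.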

How the data were processed

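The authors' deposited table holds expected counts per gene. Per the submitters' processing notes, reads were trimmed with cutadapt 2.3, aligned with STAR 2.7.8a to GRCh38 and counted with RSEM 1.3.3. No annotation release or strand setting is named there. The values were already whole. Of 60628 identifiers, 58516 (96.5%) were in GENCODE 29, which gave places and exon lengths, and start regions came from RefSeq. The 10 genes, the lists and the tests were chosen with earlier results of these data known.

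The model was fitted with edgeR 4.0.16 in R 4.3.3, over 36 libraries and a mean per line and arm (14 groups), with TMM scaling, filterByExpr (21138 genes) and quasi-likelihood F tests, and SE is the log2 fold change over the root of F. Tests over lines used counts summed per line and arm (20773 genes). The mean, class and baseline tests take lines as replicates. Levels are CPM on the TMM-scaled total, divided by the kilobases of merged exons where genes are compared. Floors are 3 counts. Intervals of shares are 95% Clopper-Pearson and cover counting error only. Alternatives were DESeq2 1.42.0, limma-voom (limma 3.58.1), DESeq2 size factors, no filter, 10 counts in 2 libraries, lines fitted alone, a replicate block, summed copies, and each library or line left out; fits without THP6 knockdown 2 or without MOLT4 were added after values were seen. Named genes outside the 10 are the leading segments, up to 2 called genes per list, line and direction with the lowest adjusted p, and the 3 most alike in level. TARP was not used here in the summed gamma copies. Some named genes of the lists are not reported here. The fits were also tested on simulated data. Figures used matplotlib 3.10.9.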

Additional observations from a re-analysis of the deposited data

Results flagged for a closer look

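The log2 response to GATA3 knockdown differed over the 6 lines without SUP-T1 for 8 of the 9 tested genes, by edgeR's quasi-likelihood F test adjusted over 21138 genes. The adjusted p was 5.69e-05 for TRBC1, 6.77e-05 for TRAC, 9.24e-05 for CD3D, 0.000234 for TRBC2, 0.00144 for CD3E, 0.00214 for CD247, 0.00549 for TRGC1 and 0.00618 for CD3G. The same test passed for 25% of all tested genes. For TRAC the largest response of the 6 lines was in MOLT4 (1.88) and the lowest in THP6 (-0.51), both from few counts. MOLT4 had 67 counts in knockdown and 18 in control libraries. THP6 had 9 and 18, with overlapping groups and no call (edgeR adjusted p = 0.658). For TRBC2 it was 0.50 in CCRF-CEM and -0.38 in MOLT4, and for CD247 0.50 in Mac1 and -0.23 in CCRF-CEM. Groups of 2 or 3 libraries are too small for the gap test of single samples.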

How the results depend on the processing

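Of the 17 calls, 9 held under every alternative run and 8 were lost under at least 1, and none changed sign. Calls per direction, 13 higher and 4 lower, were 14 and 6 with DESeq2, 15 and 6 with limma-voom, and 11 and 4 with a replicate block. Leaving out 1 library gave 11 to 14 higher and 3 to 7 lower, the 7 without THP6 knockdown 1. Same-numbered libraries shared only a number (17 correlations of residuals, -0.0596 to 0.0937, none over 0.1). With that block TRAC in H9 and CD247 in THP6 lost their calls (adjusted p = 0.140 and 0.129), and it changed no other call. Of 738 alternative values of single responses, 677 kept direction and side, 26 no longer passed, 21 newly passed and 14 changed sign; none of those 14 belonged to the 17 calls. The mean and class tests were not run with DESeq2 or limma-voom.

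The ranges of the responses whose sign changed, on the log2 scale over fits that leave out 1 library, were as follows, and the cause was not tested. In SUP-T1 TRBC1 was -0.38 to 0.089 and TRGC1 -0.21 to 1.04. In THP6 TRBC1 was -0.068 to 0.015, TRBC2 -0.20 to 0.20, TRGC1 -0.47 to 0.29, TRGC2 -0.85 to 0.22, CD3D -0.062 to 0.094, CD3E -0.30 to 0.051 and CD3G -0.84 to 0.16. CD3E in H9 was -0.037 to 0.061, and CD3G in MyLa -0.058 to 0.0075.

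No mean response passed under any alternative, and signs changed as follows: without Mac1, TRAC -0.12 and TRBC2 -0.015; without CCRF-CEM, TRAC -0.0081 and TRBC2 -0.079; without MOLT4, TRAC -0.13, CD3D -0.0078 and CD3G -0.043; without MyLa, TRBC1 -0.020, TRBC2 -0.015 and CD3E -0.028. No class difference passed either. Without SUP-T1 TRAC was 0.34 and CD247 -0.18, and without THP6 knockdown 2 as well TRAC was 0.42, TRBC2 0.040 and CD247 -0.30. Without MyLa TRBC1 was 0.36, CD3D -0.0045 and CD3G -0.010; without MOLT4 TRBC2 was 0.017, CD3D -0.23 and CD3G -0.17; without THP6 TRBC1 was 0.011; without H9 CD247 was -0.018. At baseline, leaving out H9 gave 1 member called, CD3E, and turned TRBC1 to 3.04, TRGC1 to 3.45 and CD247 to 0.073, since H9 is the CTCL line with high TRBC1, TRGC1 and CD247.

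Groups of 2 or 3 libraries, shared counts between gene copies and the SUP-T1 labels limit these results most. Below about 1 CPM (TRAC in MOLT4, CCRF-CEM and THP6, CD3E in MyLa, TRGC1 outside H9 and THP6) a group rests on few counts, and the SE there can be too small.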
